A study of Mus musculus with 14 samples.

Results

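Interferon-stimulated genes were examined in the ileum mucosa of HFD-fed mice with and without NCoR1 in their intestinal epithelial cells (IECs). The set holds 38 genes that were selected by gene symbol, namely ubiquitin-like ISG15 and its protease, 5 IFIT genes, 6 OAS genes, 10 other antiviral effectors, 4 transcription factors, 4 nucleic acid sensors, 5 GTPases and 2 PARP genes. All 38 were found among the 54532 genes counted, and all 38 were among the 13846 genes tested. WT mice carried floxed alleles of NCoR1 (NCoR1 flox/flox) without Cre, and IKO mice carried the same alleles with a Cre recombinase driven by the villin promoter. Both groups were age-matched males, of 7 to 8 weeks at the start of feeding per the paper's methods. A figure legend of the paper gives an older age for an HFD cohort. HFD feeding lasted 15 weeks, and each group comprised 7 mice with 1 library per mouse. Villin-Cre acts in the epithelium, so the immune and stromal cells of the scraped mucosa keep NCoR1. RNA was counted per gene in all 14 libraries. Levels are given as CPM (counts scaled to a common library size with TMM factors), and levels of different genes are compared only as FPKM, which also divides by gene length.

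Interferons are secreted proteins through which cells warn their neighbors of infection. Type I interferons (such as IFNα and IFNβ) and the type III interferons (IFNλ), to which gut epithelium responds strongly, signal through Janus kinases to a complex with STAT2 and IRF9 that binds the interferon-stimulated response element (ISRE). Type II interferon (IFNγ) from lymphocytes acts on genes that hold the gamma-activated sequence (GAS). The induced genes block viral entry, translation and replication, mark cells for T lymphocytes or feed back on the signal, and in the intestine many of them are also kept at a basal level by the microbiota.

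Between 14749669 and 21557468 reads per mouse were counted on genes. The share of mitochondrially encoded genes was 50.3% for IKO 4, 23.9% for WT 3 and 3.49% to 10.3% for the remaining mice. WT 4 had a summed level of 6 smooth muscle markers of 10860 CPM, against at most 796 CPM in any IKO mouse. All 12 enterocyte markers were expressed, with summed levels of 25260 to 97760 CPM in WT and 50410 to 76320 CPM in IKO mice, but markers of lymphocytes, plasma cells, macrophages and stroma were present too, so the RNA did not come from IECs alone. Ncor1, the targeted gene, was at 135 ± 31.3 CPM (SD, n = 7) in WT and 50.55 ± 10.97 CPM (SD, n = 7) in IKO mice, with no overlap between the genotypes and a log2 fold change of -1.41 (SE 0.18, adjusted p = 0.00051 from the quasi-likelihood test of edgeR).

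To see whether interferon-stimulated genes differed in IKO mice, the genotypes were compared gene by gene. Oasl1, Irf1 and Isg15 were upregulated in IKO mice, and 0 of the 38 genes were downregulated, at an adjusted p under 0.05 (quasi-likelihood test of edgeR, adjusted after Benjamini and Hochberg over all genes tested). Across all genes tested, 4.38% were called higher and 4.28% lower in IKO mice. The 3 of 38 members are few and are not read as setting the whole set apart. They were not tested against this background, because the members were chosen with earlier results of these data known. At an unadjusted p under 0.05, 8 members were higher and 2 were lower, beside 4213 of the 13846 genes tested in either direction. DESeq2 called 4 members higher and 0 lower, beside 2571 of 15607 genes in either direction. A log2 fold change above 0 was found for 30 members and below 0 for 8. Their median was 0.29, beside -0.09 over all genes tested, and they ranged from -1.12 for Mx1 to 1.63 for Ifit1bl1. The median size of the log2 fold change, whatever its sign, was 0.44 for the members and 0.39 for all genes, with median standard errors of 0.33 and 0.28. Leaving out IKO 1 lowered the members' median most, to 0.11, and leaving out WT 3 raised it most, to 0.40.

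**Figure D1:**
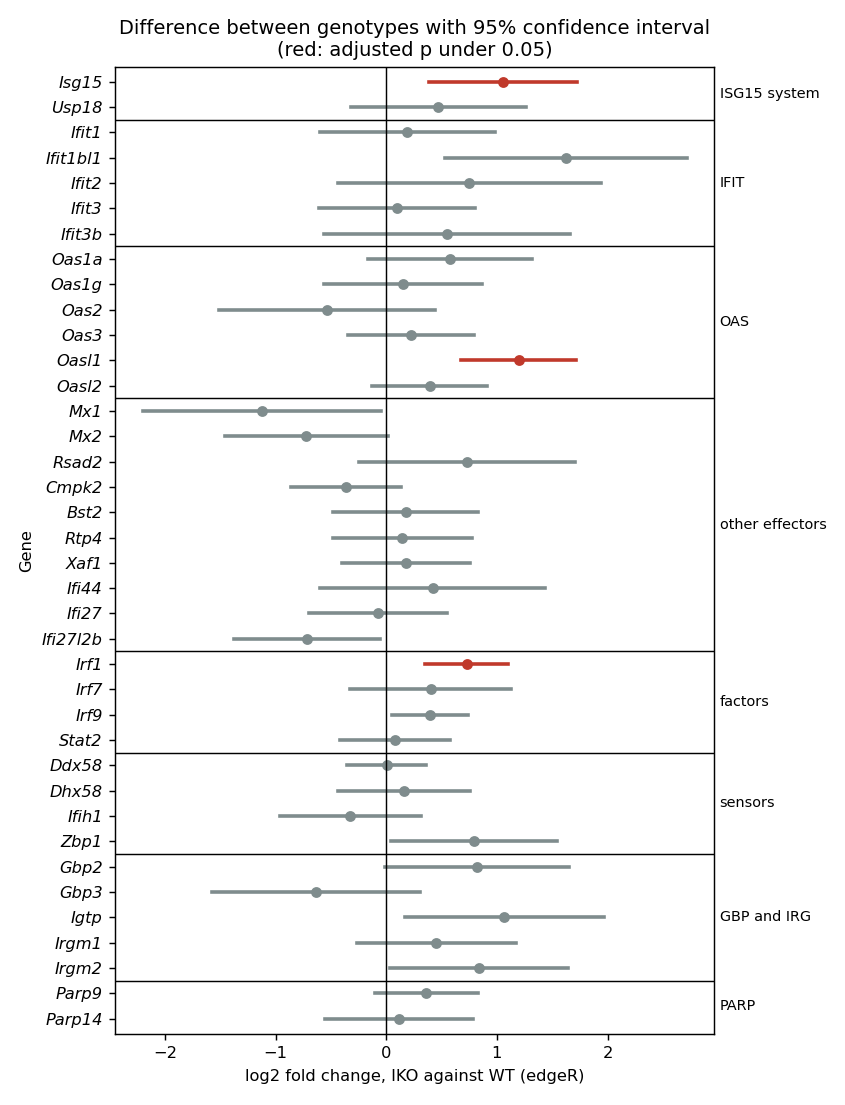
Log2 fold change between IKO and WT mice (horizontal axis) for each of the 38 interferon-stimulated genes (vertical axis, grouped by role), with 95% confidence intervals as lines and genes with an adjusted p under 0.05 in red. Oasl1, Irf1 and Isg15 are red, Ifit1bl1 lies farthest to the right at 1.63 and Mx1 farthest to the left at -1.12.

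Oasl1 encodes an OAS-like protein that lacks synthetase activity and is known in mice to restrain translation of Irf7 mRNA. The gene (ENSMUSG00000041827) lies at chr5:114923240-114937915 in mm10. Its level ran from 35.3 to 95.9 CPM in WT mice, with a median of 63.9, and from 108 to 198 CPM in IKO mice, with a median of 146. The lowest IKO mouse, IKO 3, was thus above the highest WT mouse, WT 5. Levels in IKO mice were 2.29-fold those in WT mice (95% confidence interval 1.60 to 3.28, log2 fold change 1.20, SE 0.24, adjusted p = 0.0107 from edgeR). Such a separation was found for 1.83% of all genes in the higher direction and 1.26% in the lower direction, and in this set for Oasl1 and Irf1. The exact two-sided permutation test of the 7 against 7 mice gave p = 0.000583 for both genes, the smallest that 3432 divisions allow. Any gene without overlap gets this value, and the test was run only on called members. It therefore adds nothing to the separation.

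Irf1 encodes interferon regulatory factor 1, a transcription factor induced by IFNγ that drives MHC class I, immunoproteasome and GBP genes. It lies at chr11:53770014-53778374 (ENSMUSG00000018899). In WT mice the levels ran from 114 to 234 CPM with a median of 152. In IKO mice they ran from 239.5 to 285 CPM with a median of 265. The spread was smaller in IKO (SD 15.4 CPM) than in WT mice (SD 46.3 CPM), although this difference in spread was not tested. The levels were 1.65-fold higher in IKO mice (95% confidence interval 1.27 to 2.15, log2 fold change 0.73, SE 0.18, adjusted p = 0.0236 from edgeR). WT 3, the highest WT mouse, nearly reached IKO 5, the lowest IKO mouse. The call was lost when IKO 1 was left out (adjusted p = 0.0524).

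Isg15 encodes a ubiquitin-like protein that is conjugated to other proteins and also secreted. It lies at chr4:156199424-156200818 on the reverse strand (ENSMUSG00000035692). WT mice had 16.1 to 48.6 CPM with a median of 33.3, and IKO mice had 32.3 to 114 CPM with a median of 59.8. The genotypes overlapped, since IKO 3, IKO 5 and IKO 6 lay within the WT range and 4 of 7 IKO mice were above the highest WT mouse, WT 3. The levels were 2.08-fold higher in IKO mice (95% confidence interval 1.31 to 3.31, log2 fold change 1.06, SE 0.32, adjusted p = 0.0495 from edgeR; exact two-sided permutation p = 0.0192 with n = 7 against 7). This call sits at the threshold. It was lost when any 1 of WT 1, 4, 5, 6 or 7 or IKO 1, 2, 4 or 7 was left out, with adjusted p of up to 0.0998 (without IKO 1), and without the 3 libraries that stand apart, IKO 4, WT 3 and WT 4 (adjusted p = 0.103). IKO 4, in which mitochondrial genes took 50.3% of the counts, had the highest Isg15 level of all mice, and the part of these libraries in the result was not tested beyond these fits.

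**Figure D2:**
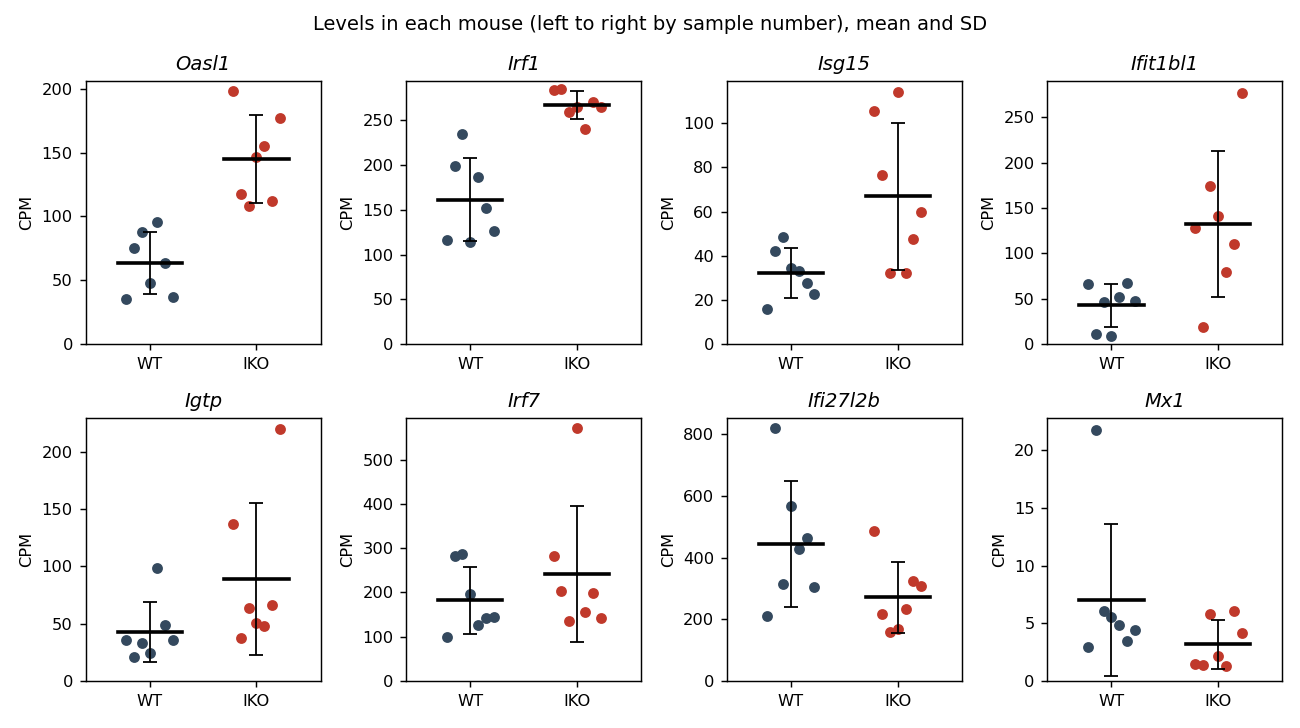
Levels in CPM (vertical axes, starting at 0) of 8 members in each WT and IKO mouse (points, left to right by sample number), with the mean (horizontal bar) and SD (error bar, n = 7). Oasl1 and Irf1 show no overlap between genotypes, 3 IKO mice lie within the WT range for Isg15, and single mice stand apart for Irf7 (IKO 4, 571 CPM), Igtp (WT 5, 98.9 CPM) and Mx1 (WT 2, 21.8 CPM).

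The sequences before the start sites of the 3 upregulated genes and of Stat2, a subunit of the ISRE-binding complex with a log2 fold change of 0.08, are given to set their interferon motifs beside the changes. They are the 250 bases before each start from RefSeq on GRCm38.p6, written 5′ to 3′ on the strand of the gene, with capitals for each match on either strand to the ISRE letters (GAAA and GAAA with 2 bases of any kind between them) or to the GAS letters (TTCNNNGAA). These windows lie before the annotated gene and hold no transcribed bases of it.
Isg15, chr4:156200819-156201068, reverse strand: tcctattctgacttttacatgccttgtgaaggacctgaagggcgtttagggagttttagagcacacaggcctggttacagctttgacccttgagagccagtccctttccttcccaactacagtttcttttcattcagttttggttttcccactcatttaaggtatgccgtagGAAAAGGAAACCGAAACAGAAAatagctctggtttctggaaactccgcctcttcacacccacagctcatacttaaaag
Irf1, chr11:53769764-53770013, forward strand: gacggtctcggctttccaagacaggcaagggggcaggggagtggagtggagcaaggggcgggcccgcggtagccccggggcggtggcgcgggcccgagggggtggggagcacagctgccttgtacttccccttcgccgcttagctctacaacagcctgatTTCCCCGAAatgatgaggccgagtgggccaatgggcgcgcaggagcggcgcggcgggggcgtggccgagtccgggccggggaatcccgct
Oasl1, chr5:114922990-114923239, forward strand: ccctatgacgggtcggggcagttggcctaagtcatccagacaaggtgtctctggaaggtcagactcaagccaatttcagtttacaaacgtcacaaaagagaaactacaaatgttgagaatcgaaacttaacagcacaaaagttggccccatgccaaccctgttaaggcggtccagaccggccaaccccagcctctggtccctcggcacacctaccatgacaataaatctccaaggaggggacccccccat
Stat2, chr10:128270248-128270497, forward strand: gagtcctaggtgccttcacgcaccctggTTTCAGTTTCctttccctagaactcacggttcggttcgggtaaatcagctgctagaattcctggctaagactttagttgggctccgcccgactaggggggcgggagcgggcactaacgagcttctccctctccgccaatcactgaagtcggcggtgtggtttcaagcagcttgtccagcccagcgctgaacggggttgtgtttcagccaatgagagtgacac

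In Isg15, 3 overlapping ISRE matches began 78, 72 and 66 bases before the start. Irf1 held 1 GAS match 90 bases before its first start site, no ISRE match, and neither motif at its other start site. Oasl1 held no match to either set of letters, and Stat2 held 1 ISRE match 222 bases before the start. Among the 27 members with a RefSeq promoter entry, of which 5 have 2 start sites, 18 (66.7%) held an ISRE match between 250 bases before and 50 bases after a start, against 3.99% of 27025 genes with an entry. A GAS match was found in 6 (22.2%) against 9.55%, and 4 members held both. In Bst2 the GAS match and an ISRE match overlap. Mx1, Mx2, Oas2, Ifi27, Ifi27l2b, Usp18, Zbp1, Rtp4, Parp9, Parp14 and Dhx58 have no entry.

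The differences between the genotypes were then read beside these matches. The 18 members with an ISRE match had a median log2 fold change of 0.34, with 1 called. The 9 without had a median of 0.40, with 2 called. Across all genes tested, 4.38% were called higher and 4.28% lower. The members without an entry are missing from these medians, and the median of all 38 was 0.29. Of those missing, Mx1, Mx2, Oas2, Ifi27 and Ifi27l2b were below 0 and Usp18, Zbp1, Rtp4, Parp9, Parp14 and Dhx58 above 0. For GAS, the median was 0.74 for the 6 members with a match and 0.39 for the 21 without, and the medians with and without a match were not tested against each other. Gbp2 (ISRE 59 bases before the start), Igtp and Irgm2 (both motifs) had log2 fold changes of 0.82, 1.07 and 0.84, whereas Gbp3, which has 2 ISRE matches, had -0.63. A match of letters is not a bound site.

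Usp18, the protease that removes ISG15 from its targets and damps the type I receptor, had 5.84 to 12.2 CPM in WT mice (median 7.67) and 3.54 to 25.4 CPM in IKO mice (median 9.59). Its log2 fold change of 0.47 did not pass the test (SE 0.37, adjusted p = 0.403 from edgeR). IKO 7 was highest and IKO 2 lowest of all mice, so that the IKO mice lay on both sides of the WT mice.

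The 5 IFIT genes encode proteins that bind foreign RNA ends and block its translation, and they lie side by side at chr19:34550694-34650009. All 5 had log2 fold changes above 0, with a median of 0.55, but 0 passed the test in edgeR and 1 had an unadjusted p under 0.05. That gene was Ifit1bl1, which showed the largest difference of all 38 members. Its levels were 8.98 to 67.8 CPM in WT mice (median 47.8) and 18.7 to 276 CPM in IKO mice (median 128), with 6 of 7 IKO mice above every WT mouse and IKO 2 within the WT range. The log2 fold change was 1.63 (95% confidence interval 0.53 to 2.72, SE 0.51) and the adjusted p = 0.0579 in edgeR just missed the threshold, while the gene was called by DESeq2, by limma-voom with sample quality weights and by edgeR without IKO 2. Ifit1 itself ranged from 29.7 to 107 CPM in WT mice (median 42.1) and from 22.6 to 113 CPM in IKO mice (median 71.2), with a log2 fold change of 0.19 (SE 0.37, adjusted p = 0.758 from edgeR) that turned to -0.02 without IKO 4. Ifit3 and Ifit3b, whose log2 fold changes were 0.10 and 0.55, are close copies, with 31.7% of the 100-base windows of Ifit3 also found in Ifit3b, so reads of either gene may have been lost or exchanged. Ifit2, at 0.52 to 5.20 CPM in WT and 0.77 to 15.4 CPM in IKO mice, was among the least expressed members.

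OAS enzymes sense double-stranded RNA and make the second messenger that activates RNase L, which degrades RNA. Of the 6 genes, Oasl1 rose and 5 did not pass the test, with a median log2 fold change of 0.31 for the 6. Oasl2, which lies next to Oasl1 at chr5:114896936-114912234, had a log2 fold change of 0.39 (SE 0.24, adjusted p = 0.284 from edgeR). Oas1a had 15.7 to 40.9 CPM in WT mice (median 24.9) and 19.6 to 94.7 CPM in IKO mice (median 22.7), so that the higher IKO mean came from IKO 4 and IKO 1 while the median was lower than in WT mice (log2 fold change 0.58, SE 0.35, adjusted p = 0.268 from edgeR, 0.20 at the lowest when 1 library was left out). Oas2 had 1.84 to 7.54 CPM in WT (median 3.20) and 0.67 to 5.73 CPM in IKO mice (median 2.05), with a log2 fold change of -0.54 (SE 0.46, adjusted p = 0.448 from edgeR). Oas1g and Oas3 were at 0.15 and 0.22 on the log2 fold change scale. Oas1a and Oas1g share 40.9% of the 100-base windows of Oas1a, and the counts of these neighbors may mix.

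The 10 other antiviral effectors showed no common direction, with 5 log2 fold changes above and 5 below 0, a median of 0.04 and 0 calls in edgeR (2 had an unadjusted p under 0.05). Ifi27l2b, which belongs to a family of small mitochondrial and membrane proteins, had the highest FPKM of all members, with a mean of 323. It had 212 to 820 CPM in WT mice (median 426) and 158 to 487 CPM in IKO mice (median 234), and only IKO 1 was above the WT median. The log2 fold change was -0.71 (SE 0.31, adjusted p = 0.138 from edgeR). Its neighbor Ifi27 was at 21.5 to 75.8 CPM in WT (median 35.95) and 24.1 to 63.0 CPM in IKO mice (median 31.3), with a log2 fold change of -0.07 (SE 0.29, adjusted p = 0.885 from edgeR) whose sign depended on the libraries and the method. Mx1, a GTPase that traps viral nucleocapsids, had a log2 fold change of -1.12 (SE 0.51, adjusted p = 0.149 from edgeR), which came to -0.50 without WT 2. This mouse had 21.8 CPM, where the other WT mice had 2.90 to 6.05 CPM and the IKO mice 1.29 to 6.08 CPM. Mx2 had a log2 fold change of -0.72 with 1.27 to 3.61 CPM in WT and 0.78 to 2.41 CPM in IKO mice. Rsad2, which encodes viperin, had a log2 fold change of 0.73, and Cmpk2, a nucleotide kinase encoded right beside it on chromosome 12, had -0.36. Bst2 (tetherin), Rtp4, Xaf1 and Ifi44 ranged from 0.15 to 0.42.

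The 4 transcription factors all had log2 fold changes above 0, with a median of 0.40, and Irf1 was the one called. Irf7, the factor that amplifies type I interferon production, had 98.4 to 287 CPM in WT mice (median 144) and 136 to 571 CPM in IKO mice (median 198). IKO 4 alone reached 571 CPM and the next IKO mouse, IKO 1, had 281 CPM, so the log2 fold change of 0.40 (SE 0.34, adjusted p = 0.444 from edgeR) fell to 0.03 without IKO 4. Irf7 shares part of its locus with Phrf1 on the opposite strand, and whether the counting used strand is not stated. Irf9 had 27.9 to 49.2 CPM in WT mice (median 37.6) and 39.6 to 71.5 CPM in IKO mice (median 48.2), and all 7 IKO mice were above the WT median. Its log2 fold change of 0.40 (SE 0.16, adjusted p = 0.117 from edgeR) had the smallest SE in the set, and it passed in limma-voom with sample quality weights only. Irf9 overlaps Rnf31 on the same strand, which had a total of 11175 counts beside 10789 for Irf9. Stat2 had 37.7 to 89.5 CPM in WT mice (median 44.6) and 31.4 to 91.4 CPM in IKO mice (median 58.0), with a log2 fold change of 0.08 (95% confidence interval -0.42 to 0.58, adjusted p = 0.845 from edgeR).

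Among the sensors, Ddx58 (RIG-I), Dhx58 (LGP2) and Ifih1 (MDA5) recognize viral RNA, and Zbp1 recognizes Z-form nucleic acids and triggers cell death. None of the 4 passed in edgeR, and 1 had an unadjusted p under 0.05. Zbp1 had 12.7 to 51.5 CPM in WT mice (median 29.1) and 26.7 to 93.2 CPM in IKO mice (median 37.9), with every IKO mouse but IKO 2 above the WT median (log2 fold change 0.79, SE 0.35, adjusted p = 0.145 from edgeR). Ifih1 had 39.8 to 87.1 CPM in WT mice (median 65.3) and 19.5 to 85.7 CPM in IKO mice (median 43.7), with a log2 fold change of -0.32 (SE 0.30, adjusted p = 0.484 from edgeR). Ddx58 had the difference closest to 0 in the set, 0.00 on the log2 scale with a 95% confidence interval of -0.35 to 0.36. Dhx58 was at 0.16.

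The GBP and IRG GTPases are IFNγ-induced proteins with parts in the defense against intracellular pathogens. Their median log2 fold change of 0.82 was the highest of the 8 roles, but 0 of the 5 passed in edgeR, and 2 had an unadjusted p under 0.05. Igtp had 20.7 to 98.9 CPM in WT mice (median 35.7) and 37.9 to 220 CPM in IKO mice (median 64.1). All 7 IKO mice were above the WT median, and WT 5 had 98.9 CPM where the other WT mice had at most 48.8 CPM. The log2 fold change was 1.07 (SE 0.42, adjusted p = 0.110 from edgeR), 1.43 without WT 5, where the gene passed (adjusted p = 0.0411), and 0.67 without IKO 7. Irgm2 had 6.25 to 46.8 CPM in WT mice (median 25.8) and 14.2 to 69.3 CPM in IKO mice (median 42.3), with a log2 fold change of 0.84 (SE 0.38, adjusted p = 0.149 from edgeR). Igtp and Irgm2 overlap on the same strand at chr11:58199556-58222782, and reads in the overlap may have been lost or exchanged, which was not tested. Gbp2 had 2.64 to 16.0 CPM in WT mice (median 10.3) and 7.01 to 43.0 CPM in IKO mice (median 16.4), with a log2 fold change of 0.82 (SE 0.39, adjusted p = 0.168 from edgeR). Irgm1 was at 0.45, while Gbp3, which lies near Gbp2 on chromosome 3 with Gbp2b between them, was at -0.63.

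Parp9 and Parp14 are neighbors on chromosome 16 and encode ADP-ribosyltransferases that modulate STAT signaling. Parp9 had 47.3 to 98.9 CPM in WT mice (median 79.6) and 48.6 to 149 CPM in IKO mice (median 105), with a log2 fold change of 0.36 (SE 0.22, adjusted p = 0.270 from edgeR). Parp9 overlaps Dtx3l on the opposite strand, which had a total of 19785 counts beside 22602 for Parp9, and the counting may mix the 2 genes. Parp14 had 61.8 to 164 CPM in WT mice (median 106) and 44.4 to 185 CPM in IKO mice (median 140), with a log2 fold change of 0.12 (SE 0.32, adjusted p = 0.831 from edgeR). Neither passed, and the genotypes overlapped for both. In all, 23 of the 38 members lie in 9 groups of neighbors less than 150000 bases apart. The log2 fold changes were above 0 for all neighbors in 4 of these groups (among them the IFIT genes), below 0 in 2 (Mx1 and Mx2, and Ifi27 and Ifi27l2b) and of both signs in 3. Oasl1 was the single called gene among the 23, beside 4.38% of all genes called higher and 4.28% called lower.

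In FPKM, the highest members after Ifi27l2b were Isg15 with a mean of 65.1 over all mice, Irf7 with 55.6, Irf1 with 53.4, Oasl1 with 39.8, Ifit1bl1 with 38.5 and Igtp with 32.4. Mx2 was lowest with 0.57. All 3 upregulated genes were thus among the 5 highest members.

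The levels of the genotypes overlapped for all members but Oasl1 and Irf1. Among all genes tested, 1.83% in the higher and 1.26% in the lower direction had no overlap. The summed level of the 38 genes was 1359 to 2395 CPM in WT mice (median 2029) and 1514 to 3036 CPM in IKO mice (median 2208), so the ranges overlapped. Ifi27l2b, with a log2 fold change of -0.71, supplied 212 to 820 CPM of this sum in WT mice and 158 to 487 CPM in IKO mice. The sum thus rests in large part on 1 gene. IKO 2 was the lowest IKO mouse for 23 of the 38 genes, whereas it was the lowest for 18.1% of all genes tested. IKO 7, IKO 4 and IKO 1 were the highest IKO mice for 13, 12 and 10 members (12.9%, 17.0% and 9.50% of all genes), leaving 3 members for the other 4 mice. Among WT mice, WT 1 was lowest for 16 members (9.74% of all genes) and WT 2 for 10 (21.2%), while the highest level fell on 6 different mice. Relative to the mean of each gene over all mice, the median member stood at 0.76 in IKO 4, 0.69 in IKO 1 and 0.40 in IKO 7 on the log2 scale, and at -0.79 in IKO 2, -0.37 in IKO 5 and -0.50 in WT 1. The mitochondrial share was 50.3% in IKO 4, the highest of all mice, 3.49% in IKO 1, the lowest, and 5.84% in IKO 7, and its part in these levels was not tested.

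**Figure D3:**
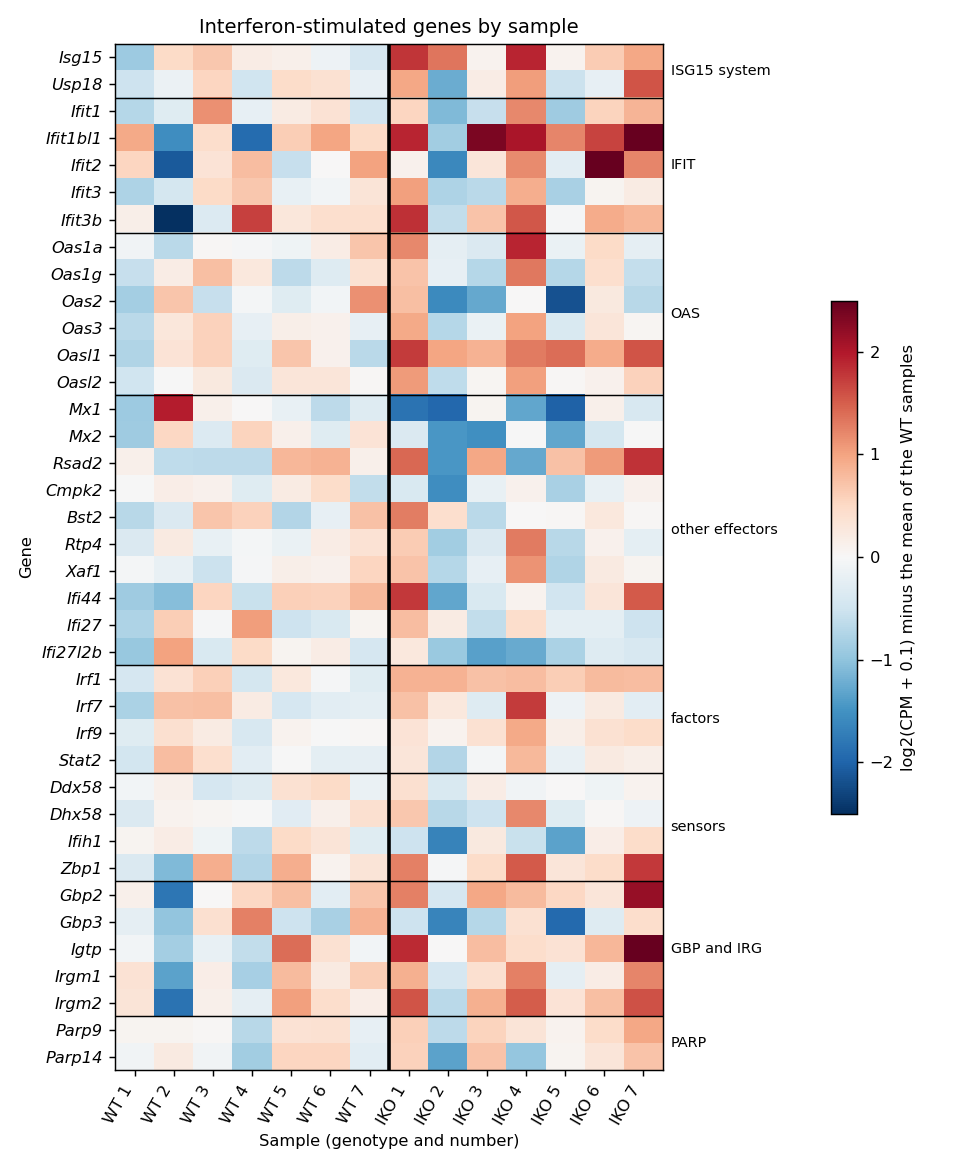
Level of each of the 38 genes (rows, grouped by role) in each mouse (columns) as log2(CPM + 0.1) minus the mean of the WT mice, from blue (lower) to red (higher), with values beyond 2.5 shown at the end of the scale. IKO 1, IKO 4 and IKO 7 are red in most rows and IKO 2 is blue in most, while Oasl1 and Irf1 are red in all 7 IKO columns.

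Most pairs of members varied in the same direction across IKO mice. Over the 703 pairs of members, the median Pearson r of log2 CPM was 0.56 across the 7 IKO mice, with 89.3% of pairs above 0 and 19.6% above 0.8. Across the 7 WT mice it was 0.14, with 59.5% of pairs above 0 and 5.55% above 0.8. Over all pairs of genes tested the median was -0.004 in WT and -0.002 in IKO mice, with 5.30% of pairs in IKO and 5.19% in WT mice above 0.8. These pairs share the same 7 libraries and are not independent, so they carry no p, and the difference between the genotypes was not tested. Leaving out 1 mouse gave medians of 0.480 (without IKO 2) to 0.653 (without IKO 4) in IKO mice. In WT mice the lowest was 0.0156 (without WT 1) and the highest 0.178.

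The median r between members of the same role was higher in IKO than in WT mice for the OAS genes (0.74 against 0.16), the IFIT genes (0.70 against 0.27), the sensors (0.48 against 0.008), the other effectors (0.36 against 0.10) and the GBP and IRG GTPases (0.81 against 0.67). It was lower in IKO than in WT mice for the transcription factors (0.47 against 0.84), for Isg15 with Usp18 (0.38 against 0.53) and for the PARP genes (0.83 against 0.97). Irgm1, Ifit3, Ifit1 and Xaf1 had the highest median r with the other members in IKO mice, at 0.76, 0.74, 0.74 and 0.73. Irf1 had the lowest in IKO mice, 0.14 and 0.14 in WT mice, where its r ran from -0.63 with Ifit3b to 0.91 with Oas3. Oasl1, the other gene without overlap between genotypes, was at 0.43 in IKO and 0.25 in WT mice.

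Of 4 chosen pairs, examined in each genotype (8 relations, exact permutation test with n = 7), 0 passed after Benjamini-Hochberg adjustment. Isg15 and Irf7 had r = 0.89 in WT mice (exact permutation p = 0.00813, adjusted 0.0508; Spearman rho = 0.86, p = 0.0238, adjusted 0.091) and r = 0.81 in IKO mice (p = 0.0127, adjusted 0.0508; rho = 0.82, p = 0.0341, adjusted 0.091). Without the 2 mice farthest from the median of Isg15, r was 0.88 and 0.81. Isg15 and Irf1 had r = 0.78 in WT (exact permutation p = 0.0395, adjusted 0.105; rho = 0.64, p = 0.139) and 0.69 in IKO mice (p = 0.0804, adjusted 0.129; rho = 0.57, p = 0.2), and 0.67 and 0.88 without the 2 farthest mice. Stat2 and Oas2 had r = 0.26 in WT (exact permutation p = 0.606; rho = 0.29, p = 0.556) and 0.71 in IKO mice (p = 0.0657, adjusted 0.129; rho = 0.86, p = 0.0238), and 0.28 and 0.98 without the 2 farthest mice. Irf1 and Gbp2, a known IRF1 target, had r = -0.42 in WT (exact permutation p = 0.374; rho = -0.39, p = 0.396) and -0.15 in IKO mice (p = 0.756; rho = -0.21, p = 0.662), and -0.50 and -0.002 without the 2 farthest mice.

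The rest of the interferon pathway was examined to place these genes. No interferon gene passed the filter on low counts. Of 21 ligand genes, 18 had 0 counts in every library, which allows up to 3 counts per library or 0.106 to 0.328 CPM (counting error only), and near-identical Ifna copies may also lose reads that fit several of them. Ifng had counts in all 14 mice, 70 in WT and 32 in IKO mice in total. Ifnk and Ifnz had 8 and 2 counts in WT and 6 and 1 in IKO mice. Without the filter, edgeR gave Ifng a log2 fold change of -0.88 (adjusted p = 0.414) and DESeq2 gave -0.88 (adjusted p = 0.356), and neither test called a ligand.

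Receptor genes were expressed in both genotypes. Ifnar1 and Ifnar2 (the type I receptor) had log2 fold changes of 0.02 and -0.30, Ifnlr1 and Il10rb (the type III receptor) of -0.27 and -0.17, and Ifngr1 of 0.07. Ifngr2, the signaling chain of the IFNγ receptor, rose from 192 ± 41.8 to 322 ± 42.7 CPM (SD, n = 7 each, log2 fold change 0.75, SE 0.16, adjusted p = 0.0149 from edgeR). Of 10 genes of Janus kinases, STATs and their inhibitors, Stat3, which serves IL-6 and IL-22 more than interferons, rose (log2 fold change 0.56, SE 0.16, adjusted p = 0.0411 from edgeR). The call of Ifngr2 was lost without IKO 4, WT 3 and WT 4 (adjusted p = 0.0645) and with the replicate block (0.0506). That of Stat3 held in 12 of 25 alternatives. It was lost without any 1 library other than WT 5, WT 6, IKO 2 and IKO 6, and without the 3 libraries (adjusted p = 0.117).

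Among 16 tested genes that sense nucleic acids upstream of interferon, Trim25, the ubiquitin ligase of RIG-I, rose from 149 ± 35.3 to 310 ± 60.7 CPM (SD, n = 7 each, log2 fold change 1.05, adjusted p = 0.0056 from edgeR) with no overlap between the genotypes. Of 62 further interferon-induced genes tested, 1 was higher and 4 lower, beside 4.38% and 4.28% of all genes. The higher gene was Lgals9, which encodes galectin-9 and went from 227 ± 62.6 to 640 ± 213 CPM (SD, n = 7 each, 2.82-fold, adjusted p = 0.0027 from edgeR) without overlap. Samd9l, an antiviral translation inhibitor, fell from 73.9 ± 19.2 to 21.5 ± 13.5 CPM (SD, n = 7 each, log2 fold change -1.78, adjusted p = 0.0073 from edgeR), again without overlap. Ifi203, Oas1b and Pnpt1 were lower with log2 fold changes of -1.82, -1.57 and -0.84 (adjusted p = 0.0477, 0.0393 and 0.0294 from edgeR). These calls held in 9, 9 and 17 of 25 alternatives, and all 3 were lost without IKO 4, WT 3 and WT 4 (adjusted p = 0.149, 0.105 and 0.0798) and without the filter on low counts. With 1 library left out, Ifi203 stayed called without WT 2, 5 or 6 or IKO 7, Oas1b without WT 1, 5 or 6 or IKO 4 or 6, and Pnpt1 was lost without WT 1 or 7 or IKO 1, 2 or 4. Lgals9, Samd9l and Trim25 were called in all 25. The genotypes also did not overlap for Pnpt1 (lowest WT mouse 11.6 CPM, highest IKO mouse 11.4 CPM). No overlap was found for 1.83% of all genes tested in the higher and 1.26% in the lower direction. Ifi203 is an AIM2-like DNA-binding protein, Oas1b an OAS relative linked to flavivirus resistance and Pnpt1 a mitochondrial RNA exonuclease.

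In MHC class I presentation, 1 of 15 genes passed. This was Psmb10, an immunoproteasome subunit (log2 fold change 0.65, adjusted p = 0.0485 from edgeR). The call held in 5 of 25 alternatives and was lost in 12 of the 14 in which 1 library was left out (all but IKO 3 and IKO 6, adjusted p of up to 0.0886 without IKO 1). In this list 11 of the 15 had a log2 fold change above 0, with a median of 0.46. In all, 5 of the 107 pathway genes tested were higher and 4 lower, with genes that stand in more than 1 list counted once, beside the 4.38% and 4.28% of all genes. The medians of the other lists were -0.07 for receptors, -0.12 for Janus kinases and STATs, -0.21 for sensing genes and -0.24 for further interferon-induced genes. The pathway count fell from 9 to 5 without WT 1, WT 4 or IKO 5, to 4 without WT 7 or IKO 1, and to 3 without IKO 4, WT 3 and WT 4 together.

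**Figure D4:**
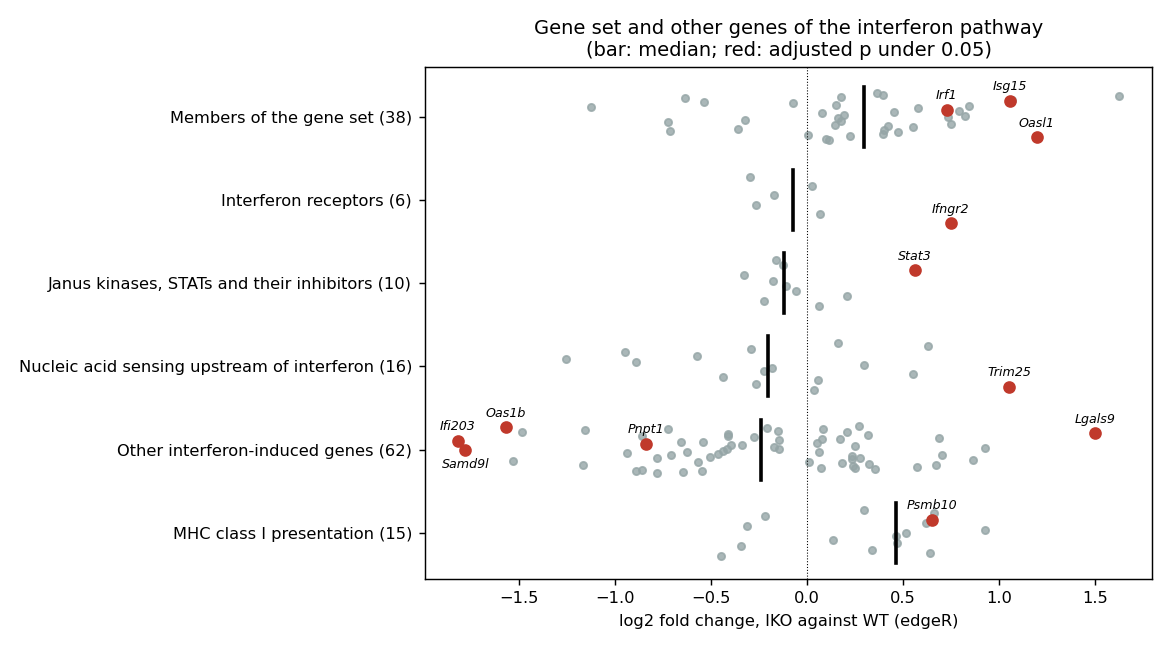
Log2 fold change between IKO and WT mice (horizontal axis) of the 38 interferon-stimulated genes and of 5 lists of other interferon pathway genes (rows, with the number tested), each point a gene, bars for the medians and red for an adjusted p under 0.05. The medians are 0.29 for the 38 genes and 0.46 for MHC class I presentation, against -0.07 to -0.24 for the other lists, and the further interferon-induced genes hold called genes on both sides of 0.

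The levels come from scraped mucosa, where fewer cells of a type and less RNA per cell cannot be told apart. Markers of the immune cells that make or answer interferon were called neither higher nor lower in IKO mice. The summed level of 10 T cell and intraepithelial lymphocyte markers was 104 to 312 CPM in WT and 102 to 311 CPM in IKO mice, and that of 8 macrophage markers was 66.4 to 336 and 31.5 to 130 CPM. Of these lists, 7 of the 10 and 8 of the 8 markers had a log2 fold change below 0, with medians of -0.33 and -0.42. For 6 plasmacytoid dendritic cell markers the sums were 34.8 to 102 CPM in WT and 42.9 to 137 CPM in IKO mice, with IKO 1 highest. Klk1 carried most of this sum (mean 44.8 CPM in WT and 76.5 CPM in IKO mice), so the sum follows Klk1 rather than the list. The 4 markers tested had a median log2 fold change of -0.90, with Klk1 above 0 and Ly6d, Pacsin1 and Ccr9 below 0, and 2 had an unadjusted p under 0.05. For 6 dendritic cell markers the sums were 5.94 to 27.6 CPM in WT and 4.56 to 12.1 CPM in IKO mice. The 4 of them tested were below 0, with a median log2 fold change of -0.73 and 0 called. The 5 B cell markers reached 598 CPM in WT 3 and at most 51.6 CPM in IKO mice. Their median log2 fold change was -2.23, with 0 of 5 called in edgeR (4 at an unadjusted p under 0.05). No marker of these lists was at 0 in every mouse. The part of cell composition in the levels of the interferon-stimulated genes was not tested.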

How the data were processed

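RNA was extracted from scraped ileum mucosa of 7 WT and 7 IKO mice and sequenced by the authors from NEBNext libraries. Per the submitters' processing notes, the tools named are HISAT2 2.0.5, featureCounts 1.5.0-p3 and DESeq2 1.16.1, with genome build mm10. Strandedness, filters and batches are not given in the sources used here. The deposited counts are whole numbers per gene without normalization. The deposited FPKM, made by the authors, equal counts per kilobase divided by a DESeq2 size factor times 1 constant, as tested on the values. The 14 columns were matched to the sample titles, with KO read as IKO.

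The members and lists were chosen with earlier results of these data known. The quasi-likelihood test of edgeR 4.0.16 in R 4.3.3 was run on genes kept by filterByExpr (13846 in number) after TMM scaling. Genotype was its sole term, and p-values were adjusted by the Benjamini-Hochberg method over all of them. The log2 levels add a prior count of 2. Named members are those with an adjusted p under 0.05, the 2 with the highest FPKM in each role, and Isg15, Irf7, Stat2, Irf1, Gbp2 and Oas2. The remaining members are given by fewer values, and of the pathway lists the receptors and called genes are named. A further gene that was to be named is not reported here. On counts simulated for this comparison, 29.3% of 92 genes changed by 1 on the log2 scale and 81.2% of 96 changed by 2 were called, with 2 false calls among 107 in 13649 genes. Far fewer genes were changed there than were called in the data (1200). The adjusted p depends on this number, so these rates need not hold for the data. Alternatives were DESeq2 1.42.0, RLE factors, exclusion of mitochondrially encoded genes, other filters, limma 3.58.1 on FPKM or with voom quality weights, a replicate block, and leaving out libraries. FPKM was tested as log2(FPKM + 1) or log2(FPKM + 0.1) for genes above 0.5 in at least 7 samples, or without that filter. Shared sequence between genes was taken from 100-base windows of annotated transcripts (GENCODE on GRCm38).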

Additional observations from a re-analysis of the deposited data

Results flagged for a closer look

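In 8 of the 76 sets of 7 mice examined (38 genes in each genotype), 1 mouse lay so far above the rest that the gap to its nearest neighbor exceeded the 95% critical value of Dixon's test. Chance gives about 1 in 20 sets, or 3.8 here, if levels are normally distributed and the sets independent. The test was run on CPM rather than log2 levels, and the 38 genes share the same 7 mice of a genotype. The 8 sets are therefore no measure of an excess over 3.8. For Irf7, IKO 4 had 571 CPM and the next IKO mouse 281 CPM. For Irf9, IKO 4 had 71.5 CPM and the next 51.3 CPM. Igtp reached 98.9 CPM in WT 5 and 48.8 CPM in the next WT mouse. Ifit1 was at 107 CPM in WT 3 with the next at 62.2 CPM, and Ifit3b at 4.51 CPM in WT 4 with the next at 1.80 CPM. Ifit2 was at 15.4 CPM in IKO 6 with the next at 6.02 CPM. Mx1 was at 21.8 CPM in WT 2 with the next at 6.05 CPM, the widest gap (0.833 of the range). Bst2 was at 43.3 CPM in IKO 1 with the next at 23.8 CPM. All 8 were high values, and 2 of them fell on IKO 4, the library with 50.3% mitochondrial counts. None of Oasl1, Irf1 and Isg15 had such a sample.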

How the results depend on the processing

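Over 25 alternatives, Oasl1 was called in 24, Irf1 in 23 and Isg15 in 10, with log2 fold changes of 1.08 to 1.33, 0.65 to 0.84 and 0.88 to 1.18. The count of members called was 5 with limma-voom and sample quality weights (Ifit1bl1 and Irf9 added), 4 with DESeq2 (Ifit1bl1 added) and 1 (without IKO 1) to 3 with 1 library left out. Ifit1bl1 was also called without IKO 2, and Igtp without WT 5. The members' median stayed between 0.11 and 0.40, above the median of all genes under each alternative. That median was -0.32 in place of -0.09 without a filter on low counts. The sample numbers did not pair the mice (correlation of same-numbered mice -0.305 to 0.232, 1 of 7 best with its own number). With the replicate block, edgeR called 0 members (8 higher and 1 lower at an unadjusted p under 0.05, adjusted p 0.0541 for Oasl1 and 0.0667 for Irf1) and 4 pathway genes. Pathway genes called were 20 of 110 with DESeq2 (15 higher and 5 lower), beside 2571 of the 15607 genes it tested. The pathway count was 4 without a filter, 3 without IKO 4, WT 3 and WT 4, and 4 to 11 with 1 library left out. All genes called rose from 1200 to 2571 with DESeq2 and 1889 with limma-voom, and fell to 508 without a filter, 362 with the block and 433 without the 3 libraries.

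Signs turned for 4 named members, all far from the threshold. Ifi27 went from -0.07 to 0.0094 (pseudocount of 1, with or without the filter) and 0.0112 (pseudocount of 0.1) in limma on FPKM, 0.19 in limma-voom, 0.0928 without the 3 libraries and -0.24 to 0.16 with 1 library left out. Stat2 was at -0.0462 without the 3 libraries and -0.0646 to 0.24 with 1 left out, Parp14 at -0.0059 to 0.27 and Ifit1 at -0.0243 to 0.46. The median r of the members was 0.0156 to 0.178 in WT and 0.480 to 0.653 in IKO mice with 1 mouse left out. The cause of these shifts was not tested. Members under a few CPM, such as Ifit3b and Mx2, rest on as few as 2 and 14 counts in single libraries.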
